A study of Mus musculus with 12 samples.

Results

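Chemokines are small secreted proteins that guide leukocytes along gradients, and chemokine receptors are the G protein-coupled receptors that read them. In helper T cells the receptor set differs between states: Ccr6 and its ligand Ccl20 are known from Th17 cells, Ccr4 and Ccr8 from Th2 and regulatory cells, Cxcr3 from Th1 cells, and Ccr7 and Cxcr5 from cells that home to lymph nodes and follicles. Glucocorticoids are hormones that act through the glucocorticoid receptor (GR), a DNA-binding protein encoded by Nr3c1, and are used to damp inflammation.

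The chemokine genes were taken by symbol: every protein-coding gene named Ccl, Cxcl, Ccr, Cxcr or Xcr with a number, together with Xcl1, Cx3cl1 and Cx3cr1, and without Cxcr4. The rule gave 57 of 21896 protein-coding genes, 18 receptors and 39 chemokines. An ATAC-seq peak belonged to one of them when its centre lay inside the gene, or otherwise when that gene was the nearest protein-coding gene within 50 kb. By this rule 448 of 222105 peaks were members, 236 near receptors and 212 near chemokines, and 422 of them passed the filter on low counts, which left 202587 peaks in all. Of the 57 genes, 46 had a tested peak (17 receptors and 29 chemokines), while Cxcr6 and 10 chemokines had no peak assigned.

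The assay cuts open chromatin with the Tn5 transposase and counts sequenced DNA per peak, so the values report accessibility and not RNA. All cells were naive CD4+ T cells of C57/B6 mice, taken from spleen and dLN, cultured into the state that the submitters call Th17Hom and kept for 2 more days without (control) or with dexamethasone (Dex), a synthetic GR agonist. The 4 groups, each with n = 3 libraries of 6000 sorted cells, were WT control, WT Dex, GR cKO control and GR cKO Dex, where GR cKO is a conditional knockout of the receptor. The labels do not give the Cre driver, the age or number of the mice, or whether the 3 libraries of each group are separate animals or cultures. P-values therefore measure the spread between these libraries, which may be technical.

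Total counts ran from 12988437 to 25081591 per library. The 10% strongest peaks held 60.6% to 62.0% of counts in WT control, 60.8% to 63.5% in WT Dex, 57.9% to 60.3% in GR cKO control and 58.1% to 61.6% in GR cKO Dex, and the share was lower in GR cKO control than in WT control. Its part in the results was not tested except as a covariate. None of the 24 tested peaks of Nr3c1, the targeted gene, was called between genotypes by edgeR (4 had an unadjusted p under 0.05 in control and 3 with Dex). Counts summed over Nr3c1 overlapped between WT control (111 to 122 CPM) and GR cKO control (111 to 123 CPM), so accessibility did not check the genotype labels. T cell markers were open in every library, with the strongest Cd3e peak at 27.7 CPM per kb of peak and that of Il17a at 89.4. Markers of other cell types ranged widely: among myeloid markers the strongest peak ran from 2.49 (Lyz2) to 46.4 (Itgam), and among B cell markers from 3.03 (Ms4a1) to 31.2 (Ebf1).

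For 42 of the 57 genes a RefSeq table (GRCm38.p6, which is mm10) held the promoter, and the 250 bases before the start were searched on both strands. Printed here are the promoters of the 3 members with the most counts in a start peak assigned to them (Ccr8, Ccr6 and Ccr4), that of Cx3cr1, the gene with the peak that rose with Dex, and that of Ccl20, a chemokine with summed counts that differed between genotypes. The windows are chr9:120091883-120092132, chr17:8235793-8236042 and chr1:83116516-83116765 on the plus strand and chr9:114496545-114496794 and chr9:120068297-120068546 on the minus strand. Each is written 5′ to 3′ and ends with the base before the start. Capitals mark matches to the motifs spelled out after the sequences.

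Ccr8: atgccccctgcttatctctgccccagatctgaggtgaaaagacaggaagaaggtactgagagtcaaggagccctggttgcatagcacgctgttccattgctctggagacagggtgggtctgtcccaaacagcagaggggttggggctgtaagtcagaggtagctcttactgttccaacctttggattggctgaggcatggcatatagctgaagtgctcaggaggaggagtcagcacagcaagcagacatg

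Ccr6: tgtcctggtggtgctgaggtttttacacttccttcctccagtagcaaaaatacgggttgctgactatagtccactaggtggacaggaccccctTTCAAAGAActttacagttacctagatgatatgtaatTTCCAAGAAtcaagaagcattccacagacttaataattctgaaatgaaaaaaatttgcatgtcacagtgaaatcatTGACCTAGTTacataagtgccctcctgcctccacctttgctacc

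Ccr4: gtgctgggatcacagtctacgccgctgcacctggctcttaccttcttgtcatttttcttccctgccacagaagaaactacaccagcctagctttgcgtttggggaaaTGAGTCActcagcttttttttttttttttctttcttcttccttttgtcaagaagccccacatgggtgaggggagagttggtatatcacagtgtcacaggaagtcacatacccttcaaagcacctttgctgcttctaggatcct

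Cx3cr1: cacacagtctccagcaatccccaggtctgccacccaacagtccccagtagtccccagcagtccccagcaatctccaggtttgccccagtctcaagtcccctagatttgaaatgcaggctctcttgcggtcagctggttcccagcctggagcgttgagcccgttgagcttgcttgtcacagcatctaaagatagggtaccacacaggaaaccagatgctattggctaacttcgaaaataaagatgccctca

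Ccl20: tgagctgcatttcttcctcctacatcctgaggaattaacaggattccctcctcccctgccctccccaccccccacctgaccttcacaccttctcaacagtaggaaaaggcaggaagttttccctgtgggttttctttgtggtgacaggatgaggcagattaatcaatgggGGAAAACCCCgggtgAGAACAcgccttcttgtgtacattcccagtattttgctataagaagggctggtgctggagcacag

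The Ccr6 window held 2 matches to the STAT motif TTCNNNGAA, from -157 to -149 and from -120 to -112 relative to the start, and 1 match to the ROR element (AANT followed directly by AGGTCA) on the opposite strand, from -44 to -35. The Ccr4 window held the AP-1 motif TGANTCA from -143 to -137. Ccl20 held the NF-kB motif (GGG, 2 bases of any kind, then TTTCC) on the opposite strand from -80 to -71 and the half-site AGAACA of the glucocorticoid response element from -65 to -60. No motif searched was found in the Ccr8 and Cx3cr1 windows, and the marked matches did not overlap.

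Among all 49 member starts, the NF-kB motif was found in 6 (12.2%, in Ccl20, Ccl9, Ccr3, Cxcl1, Cxcl2 and Cxcl3), against 1.41% of all 32851 promoters. The ROR element was found in 2 (4.08%, Ccr6 and Ccl17) against 0.177%, the AP-1 motif in 6 (12.2%) against 6.75%, the STAT motif in 4 (8.16%) against 7.02% and the half-site in 7 (14.3%) against 16.1%. The full response element (AGAACA, 3 bases of any kind, then TGTTCT), which contains the half-site, was in 0 member starts and in 0.00913% of all promoters. These are matches of letters and were not tested.

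Receptor genes had the stronger peaks. Levels of different genes are compared per kb of peak, as the mean CPM (counts scaled to library size by TMM) over all 12 libraries divided by peak width. In its strongest peak Ccr6, the receptor for Ccl20, stood at 43.2 CPM per kb, with libraries between 35.6 and 53.7. Ccr7, which guides T cells to lymph nodes, followed at 41.8, and Ccr9, a gut-homing receptor, stood at 36.0. The ranges over libraries of these 3 receptors overlapped, so their order is not resolved.

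Cx3cr1, the receptor for the membrane-bound chemokine Cx3cl1, reached 30.6 CPM per kb, Ccr1 29.4, Ccr3 29.1, Cxcr1 27.4 and Ccr2, a receptor for Ccl2, 27.1. Ccr4 stood at 20.4, Cxcr5 at 18.3, Ccr8 at 17.5, Cxcr3 at 13.1 and Ccr10 at 10.9. The median of the strongest peak was 27.1 over the 17 receptors with a tested peak and 8.60 over the 29 chemokines. Above the 90th percentile of all tested peaks lay 14 receptors and 8 chemokines. The strongest peak is a maximum, which tends to be higher in genes with more peaks, and members had between 1 and 27 tested peaks.

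Among the chemokines, Ccl28 (31.4 CPM per kb) and Ccl17 (31.3), a ligand of Ccr4, were highest. Cxcl17 stood at 24.6, Xcl1, which attracts Xcr1-bearing dendritic cells, at 23.9, and Ccl1, the ligand of Ccr8, at 23.3. Ccl5, Ccl3 and Ccl4, which activated T cells secrete, stood at 14.1, 13.8 and 12.5, Ccl20 at 13.9 and Ccl22, another ligand of Ccr4, at 8.60.

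The assignment by nearest gene set some levels. The peak over the Cxcr6 start (chr9:123806084-123806826) lay within Fyco1 and was not counted for Cxcr6, although it held 33.6 CPM (28.0 to 43.1 over the libraries) or 45.2 CPM per kb. The peak over the Cxcl10 start (chr5:92348631-92349198) was assigned to Art3 and held 35.2 CPM per kb, while the 1 peak assigned to Cxcl10 held 1.82 per kb. The start of Ccl25, at 21.9 CPM per kb, lay in a peak assigned to Elavl1. A peak covered the RefSeq start of 21 of the 42 genes, and among start peaks assigned to their own gene the most counts were at Ccr8 (47.0 CPM), Ccr6 (35.3) and Ccr4 (22.4), with only 1.10 CPM at Ccl20 and 0.889 at Ccl1. The strongest peak lay inside the gene for only 12 of the 46 members, so most levels given above are those of flanking peaks. Of the 448 member peaks 27.9% lay inside their gene, while 58.0% of all peaks lay inside a protein-coding gene. For Ccl20 and Ccl1 the strongest peaks lay outside the gene, 4349 and 15438 bp from its ends.

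**Figure D1:**
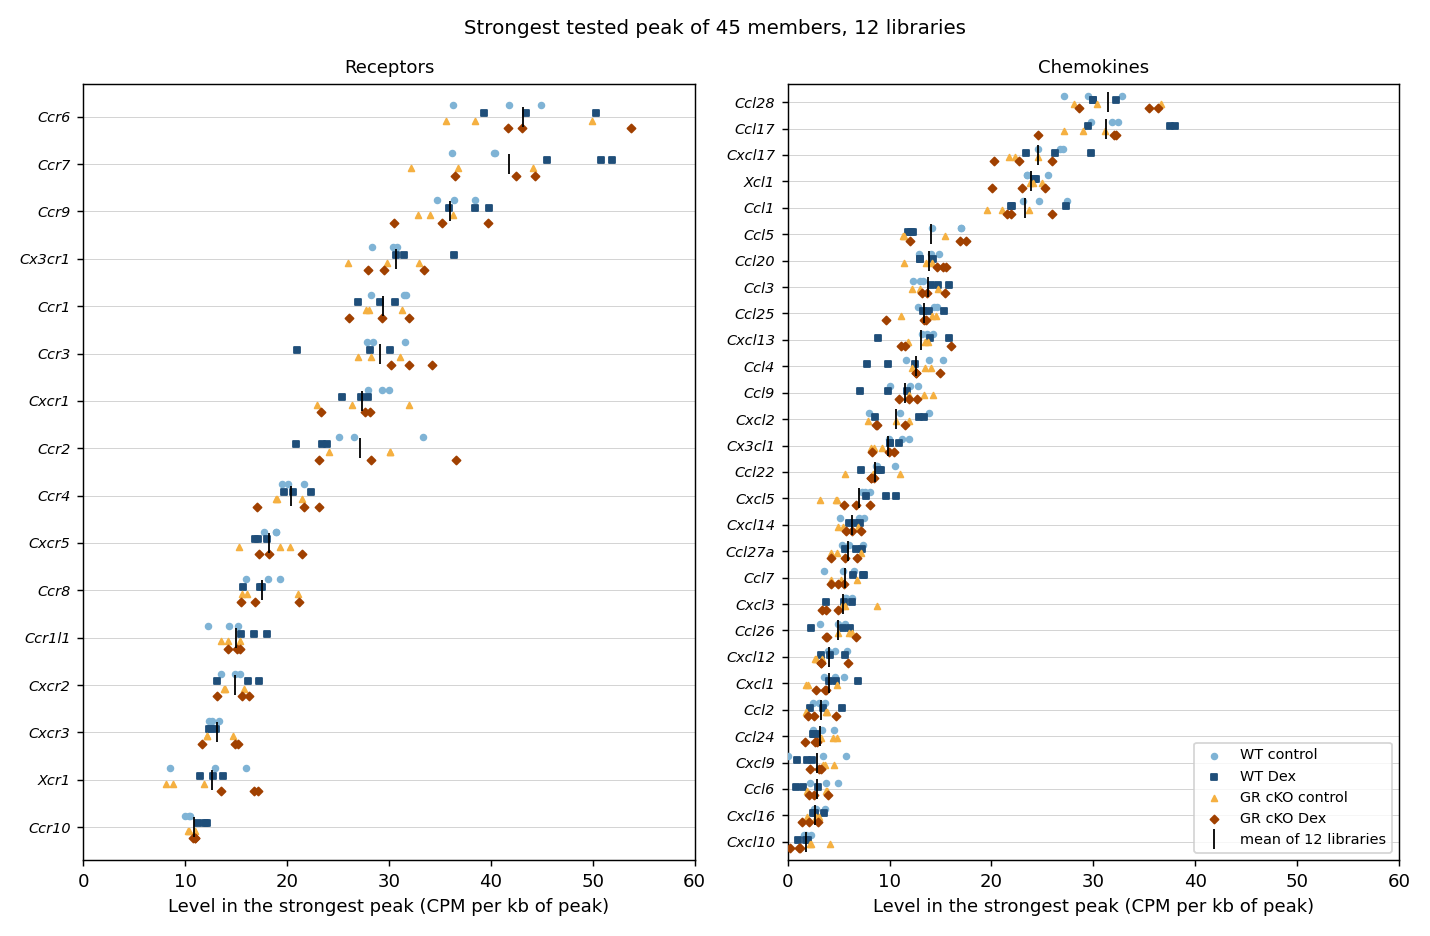
Level of the strongest tested peak of 45 of the 46 members with a tested peak, in CPM per kb of peak on a linear axis, for receptors (left) and chemokines (right). Each point is 1 of 12 libraries and the tick is their mean; Ccr6 is highest at 43.2 and Cxcl10 lowest at 1.82, and for most genes the points of the 4 groups lie among each other.

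Dex in WT cells asked where the hormone changes accessibility around these genes. Of 422 member peaks 1 passed the test, against 0.534% of all peaks called in this comparison (0.42% higher and 0.114% lower). It lies within Cx3cr1 at chr9:120055880-120056693 (mm10), 814 bp wide, with its centre 12009.5 bp into the gene from the RefSeq start. In bulk samples a change in the number of cells with an open site and a change in opening per cell cannot be told apart.

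The 3 WT control libraries held 2.14, 2.81 and 2.35 CPM at the Cx3cr1 peak, and the 3 WT Dex libraries held 10.8, 12.6 and 9.98 CPM. In GR cKO it stood at 2.40, 3.44 and 2.84 CPM in control and at 3.99, 4.39 and 3.64 CPM with Dex. Every WT Dex library lay above the other 9 libraries. With Dex the peak rose 4.53-fold in WT (log2 2.18 ± 0.19, SE, n = 3 per group; edgeR adjusted p = 7.73e-13).

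The other 15 tested Cx3cr1 peaks were not called. Its 2 most counted peaks, at 18579 and 13294 bp from the start, stood at 25.2 ± 1.10 and 24.1 ± 1.03 CPM in WT control (SD, n = 3) and at 27.8 ± 2.59 and 24.9 ± 2.23 CPM in WT Dex. The peak over the start averaged 5.52 CPM without and 4.90 CPM with Dex in WT, which did not pass the test (adjusted p = 0.878). The sequence of the called peak was not read here.

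**Figure D2:**
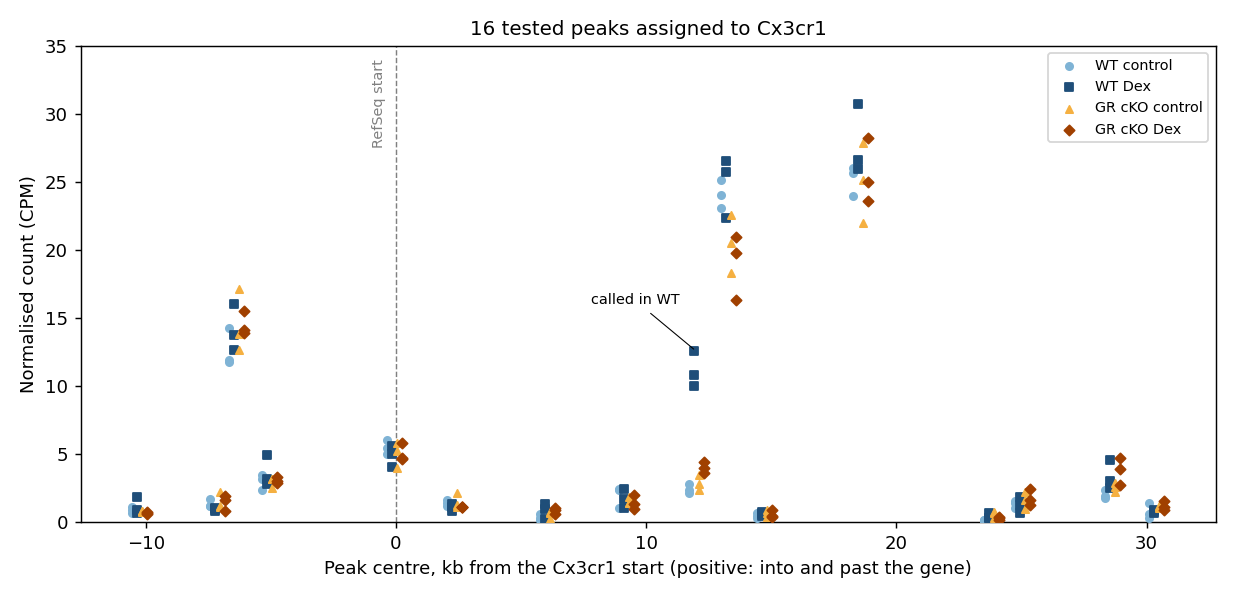
Normalised counts (CPM, linear axis from 0) of the 16 tested Cx3cr1 peaks against the distance of the peak centre from the RefSeq start; each point is 1 library, and groups are shifted sideways for legibility. At the called peak the 3 WT Dex libraries stand at 9.98 to 12.6 CPM and all others at 4.39 or less.

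CX3CR1 is also known from monocytes, NK cells and CD8 T cells, so their markers were read in the same libraries. The summed level of the 6 myeloid and dendritic markers, all with a peak and none at 0, was 199 to 209 CPM in WT control, 192 to 214 in WT Dex, 216 to 221 in GR cKO control and 199 to 216 in GR cKO Dex. The 5 CD8 T and NK cell markers summed to 167 to 176, 154 to 166, 158 to 167 and 160 to 163 CPM in the same order. No peak of either list was called in any of the 5 comparisons. Averaged over the 12 libraries, single myeloid and dendritic markers summed to between 2.33 (Lyz2) and 99.6 CPM (Itgam), and single CD8 T and NK cell markers to between 3.05 (Ncr1) and 86.3 CPM (Klrb1c). The part of such cells in the Cx3cr1 result was not tested further.

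Outside Cx3cr1, the member peaks with the smallest p-values in WT did not pass the test. A peak 7968 bp from Cx3cl1, the ligand of Cx3cr1, went from 2.01 ± 0.417 to 3.86 ± 0.304 CPM (log2 0.91 ± 0.24, edgeR adjusted p = 0.0623). At Ccr2, a peak 1085 bp before the gene had a log2 of 0.90 ± 0.25 (0.093), while a peak inside the gene had -0.48 ± 0.16 (0.204). A peak near Cxcl17, a mucosal chemokine, had -0.67 ± 0.18 (0.0545), and one near Ccr9 had -0.49 ± 0.15 (0.160). The Cxcl17 peak passed the threshold in 11 alternatives and the Cx3cl1 peak in 5.

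Over all member peaks the median log2 change with Dex in WT was -0.02, against 0.00 over all tested peaks, with 204 positive and 218 negative values. An unadjusted p under 0.05 was reached by 44 member peaks (10.4%), against 8.32% of all tested peaks. None of the 46 strongest peaks passed, with Ccr7 nearest (edgeR adjusted p = 0.129). The split of called member peaks, 1 higher and 0 lower, was 2 and 2 when libraries were scaled by total counts and 3 and 2 with loess offsets. Under these scalings 0.867% and 1.06% of all peaks were called, so the members' count rose together with that of all peaks.

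**Figure D3:**
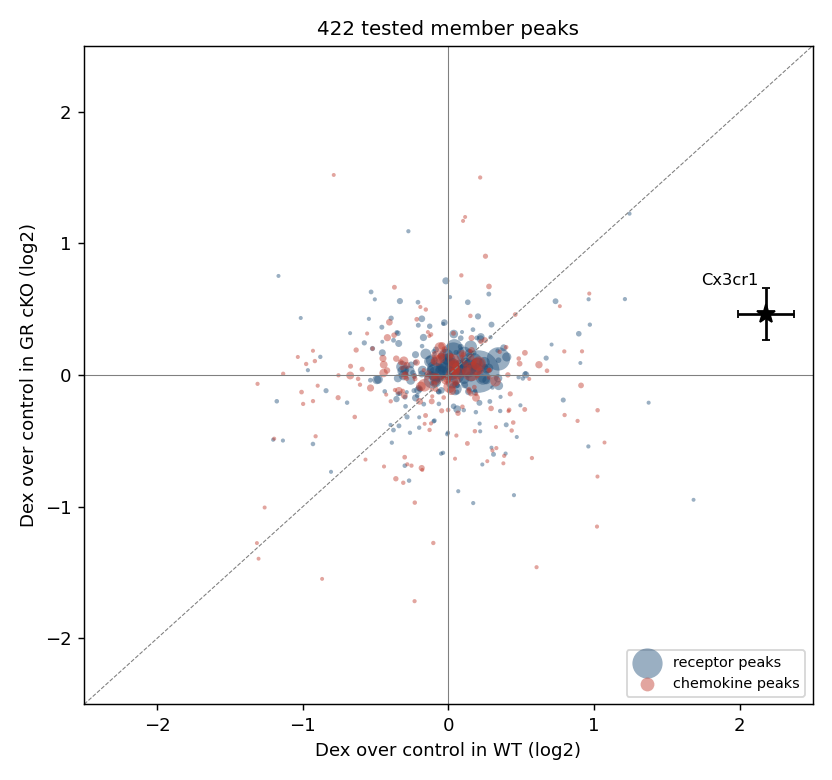
Log2 change with Dex in WT (horizontal) against that in GR cKO (vertical) for the 422 tested member peaks; point area grows with mean CPM, the star is the called Cx3cr1 peak with its SE, and the dashed line marks equal change. The Cx3cr1 peak lies at 2.18 in WT and 0.47 in GR cKO, and the peaks with many counts lie near 0 on both axes.

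Counts summed over all peaks of a gene give 1 value per member. On these sums 2 of 46 members were called with Dex in WT, against 2.64% of 17354 genes (1.67% higher and 0.98% lower). Ccl5 (RANTES, a ligand of Ccr1 and Ccr3) was lower, and Cx3cr1 was higher. The median log2 change of the 46 sums was -0.08, against 0.00 over all genes, with 17 positive and 29 negative values. The split of 1 higher and 1 lower became 1 and 3 by total counts or with loess offsets, where 3.02% and 3.44% of all genes were called.

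Ccl5 summed to 55.3, 51.5 and 54.5 CPM in WT control and to 40.4, 47.2 and 41.3 CPM in WT Dex. The 2 groups did not overlap, and Ccl5 fell with Dex by 0.32 on the log2 scale (SE 0.07, edgeR adjusted p = 0.00424). All 10 tested Ccl5 peaks had a negative log2 change in WT, although none was called alone. In GR cKO the sums were 55.9, 54.1 and 53.2 CPM in control and 53.1, 49.8 and 47.9 CPM with Dex, a log2 of -0.11 ± 0.07 (adjusted p = 0.660). The difference between the genotypes' responses was -0.21 ± 0.09 and was not called (adjusted p = 0.632). Without WT Dex replicate 1 the Ccl5 fall in WT lost its call (log2 -0.28, adjusted p = 0.0620).

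Ccl4, another chemokine of activated T cells, had the sums 16.0, 19.5 and 18.7 CPM in WT control and 12.1, 15.1 and 14.1 CPM in WT Dex, which did not overlap and just missed the threshold (log2 -0.40 ± 0.11, adjusted p = 0.0515). Ccl3 had a log2 of 0.09 ± 0.07 and was not called. The gene models of Ccl3 and Ccl4 overlap, so peaks there cannot be divided between them with certainty.

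The Cx3cr1 sums were 88.5, 88.2 and 91.5 CPM in WT control and 95.4, 109.3 and 103.9 CPM in WT Dex (log2 0.20 ± 0.06, edgeR adjusted p = 0.0465). This call rested on the peak described above: without it the log2 was 0.07 (adjusted p = 0.638). It was also lost without GR cKO control replicate 3, GR cKO Dex replicate 1, any 1 WT control library, or WT Dex replicate 2 or 3 (log2 0.15 to 0.22), and with the share of counts in the strongest peaks as a covariate (0.16, adjusted p = 0.088).

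Receptors of the Th17 and homing programmes were not called. Ccr6 summed to 178, 177 and 182 CPM in WT control and 175, 188 and 171 CPM in WT Dex, overlapping values with a log2 of -0.01 ± 0.05. Ccr7, summed over 26 peaks, stood at 540, 567 and 526 CPM in control and 575, 626 and 592 CPM with Dex, which did not overlap (log2 0.14 ± 0.06, adjusted p = 0.316). Ccr4 (-0.02 ± 0.05), Ccr8 (-0.09 ± 0.06), Ccr9 (-0.08 ± 0.05), Ccr10 (0.13 ± 0.09), Cxcr3 (0.10 ± 0.08) and Cxcr5 (-0.12 ± 0.05) were also not called.

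Dex in GR cKO cells asked what the hormone does where the receptor is deleted. No member peak was called by edgeR, DESeq2 or limma-voom, against 0.00296% of all peaks by edgeR. An unadjusted p under 0.05 was reached by 18 of 422 member peaks (4.27%), against 5.84% of all tested peaks. The Cx3cr1 peak had a log2 of 0.47 ± 0.20 there (edgeR adjusted p = 0.838), with GR cKO Dex libraries all above GR cKO control ones. The smallest p-values belonged to peaks near Xcr1 (0.72 ± 0.19, adjusted p = 0.678), Xcl1 (0.90 ± 0.31, 0.837) and Cxcl17 (1.50 ± 0.54, 0.838), and below 0 to Cxcl3 (-0.71 ± 0.23), Cxcl10 (-1.72 ± 0.56) and Ccl24 (-0.79 ± 0.28, all 0.837). The Cxcl10 peak was weak, averaging 0.977 CPM without and 0.297 CPM with Dex. The low share over all peaks depended on 1 library. Leaving out GR cKO Dex replicate 3 raised it to 0.148% (41 peaks higher and 273 lower), still with 0 member peaks called.

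On summed counts 0 of 46 members were called by edgeR or DESeq2, against 0.00576% of genes. An unadjusted p under 0.05 was reached by 4 members (8.70%), against 8.13% of all genes. Of the 46 sums 14 were positive and 32 negative, with a median log2 of -0.03, against 50.9% positive and a median of 0.00 over all genes. Among the chemokines alone 24 of 29 sums were negative, while 9 of 17 receptor sums were positive. Single member peaks did not lean to the negative side: 221 were positive and 201 negative (52.4% positive, against 49.5% of all peaks). By role 96 of 200 chemokine peaks and 125 of 222 receptor peaks were positive. Without GR cKO Dex replicate 3, 1 member passed, Ccl24, in the lower direction, while 1.68% of all genes were called (21 higher and 272 lower).

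The interaction asked whether the Dex response differed between genotypes. The Cx3cr1 peak was the 1 member peak called, against 0.0276% of all peaks (0.0271% higher and 0.000494% lower): its rise was larger in WT by a log2 of 1.71 ± 0.28 (edgeR adjusted p = 0.000725). Next by p-value came the peak near Cx3cl1 (0.99 ± 0.34, adjusted p = 0.681) and a weak peak near Ccl3 (2.17 ± 0.78, 0.708). In the other direction were peaks in Cxcr5 (-0.89 ± 0.32, 0.709), near Cxcl17 (-0.67 ± 0.24, 0.715) and in Ccl5 (-0.70 ± 0.26, 0.731), none of them called. On summed counts 0 of 46 members were called by edgeR or DESeq2, against 0.219% of genes. An unadjusted p under 0.05 was reached by 6 members (13.0%), against 7.51% of all genes.

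Without Dex, the genotypes were compared to ask what the knockout changes with no agonist added. No member peak was called by edgeR, DESeq2 or limma-voom, against 0.0104% of all peaks by edgeR (0.000987% higher and 0.00938% lower). An unadjusted p under 0.05 was reached by 25 member peaks (5.92%), against 7.69% of all tested peaks. The Cx3cr1 peak had a log2 of 0.25 ± 0.22, GR cKO over WT (adjusted p = 0.831). The smallest p-values were at peaks near Cxcr3 (1.87 ± 0.59, edgeR adjusted p = 0.424), Ccr7 (0.72 ± 0.23, 0.442) and Ccr2 (1.00 ± 0.33, 0.446). Below 0 they were at peaks in Cxcr5 (-0.45 ± 0.14, 0.410), near Cxcl5 (-0.84 ± 0.26, 0.424) and near Ccl17 (-0.62 ± 0.21, 0.446).

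The Cxcr5 peak (chr9:44515102-44516415) held enough counts to show each library group: 14.3 ± 0.998 CPM in WT control, 11.9 ± 0.368 in WT Dex, 10.5 ± 0.514 in GR cKO control and 10.7 ± 1.41 in GR cKO Dex. Each WT control library (13.2 to 15.0 CPM) lay above every library of the other groups (9.13 to 12.3 CPM).

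On summed counts 0 of 46 members were called by edgeR or DESeq2, against 0.213% of genes. An unadjusted p under 0.05 was reached by 3 members (6.52%), against 13.5% of all genes. Of the sums 38 of 46 were positive (GR cKO higher), against 52.9% of all genes, with a median log2 of 0.09 against 0.01. By role 16 of 17 receptors and 22 of 29 chemokines were positive. The lowest p was at Cxcr3, a receptor for interferon-induced chemokines, with 29.8, 28.2 and 30.7 CPM in WT and 33.3, 38.3 and 35.3 CPM in GR cKO (0.27 ± 0.08, adjusted p = 0.134). All sums come from the same 6 libraries, so they are not independent observations. This tilt of the sums was not seen in single member peaks. Of these 210 were positive and 212 negative (49.8% positive, against 51.6% of all peaks). By role 108 of 222 receptor peaks and 102 of 200 chemokine peaks were positive. The share of counts in the strongest peaks was lower in every GR cKO control library (57.9% to 60.3%) than in the WT control libraries (60.6% to 62.0%), and its part in this tilt was not tested.

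The last comparison set the genotypes against each other with Dex in both. The 1 member peak called was again that of Cx3cr1, lower in GR cKO by a log2 of 1.47 (SE 0.18, edgeR adjusted p = 1.03e-07), against 0.17% of all peaks (0.13% lower). This comparison shares the WT Dex libraries with the one of Dex in WT. The split of called member peaks, 0 higher and 1 lower, was 1 and 1 by total counts, 2 and 1 with loess offsets and 5 and 1 with the share of counts in the strongest peaks as a covariate. Over all peaks, 81 were higher and 264 lower, against 504 and 390 by total counts, 546 and 462 with loess offsets and 1222 and 575 with the covariate, so the members' split shifted with that of all peaks. Other peaks with small p-values lay near Cxcr1 (0.65 ± 0.19, adjusted p = 0.193), Ccr2 (1.13 ± 0.34, 0.201) and Ccl22 (0.55 ± 0.17, 0.238), and below 0 near Xcl1 (-0.64 ± 0.18, 0.133) and Ccl1 (-0.44 ± 0.13, 0.189).

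On summed counts 6 of 46 members were called, all higher in GR cKO, against 2.3% of genes (1.31% higher and 0.991% lower). Described here are 5 of them, the receptors Ccr2, Ccr3 and Xcr1 and the chemokines Ccl20 and Ccl4. The median log2 of the 46 sums was 0.06, against 0.00 over all genes, with 30 positive and 16 negative. Summed levels of the B cell and Th17 marker lists were also higher in GR cKO Dex than in WT Dex, without overlap. For the other marker lists these groups overlapped. The 5 B cell markers all had a peak and none was at 0. They summed to 361 to 368 CPM in WT Dex and 398 to 430 CPM in GR cKO Dex. In control they summed to 386 to 409 CPM in WT and 411 to 439 CPM in GR cKO. Most of this came from Ebf1 (352 CPM averaged over the 12 libraries), with the others between 1.51 (Ms4a1) and 31.4 CPM (Pax5). The 6 Th17 markers, Ccr6 among them, summed to 822 to 850 CPM in WT Dex and 858 to 925 in GR cKO Dex. In control they stood at 815 to 841 CPM in WT and 846 to 931 CPM in GR cKO. No B cell marker peak was called in this comparison, while 3 of 137 Th17 marker peaks were, against 0.17% of all peaks. The part of either cell type in the 6 calls was not tested.

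Ccr2, the receptor that draws inflammatory cells towards Ccl2, summed to 70.3, 69.6 and 71.2 CPM in WT Dex and to 85.8, 92.2 and 86.2 CPM in GR cKO Dex. The groups did not overlap, and Ccr2 was higher by a log2 of 0.32 ± 0.06 (edgeR adjusted p = 0.00157). Of its 12 tested peaks 10 were positive and none was called alone. In control medium the sums were 72.9, 82.3 and 78.8 CPM in WT and 76.3, 89.7 and 89.3 CPM in GR cKO, which overlapped (0.12 ± 0.06, adjusted p = 0.378). Ccr2 was called in all 20 alternatives tried, with a log2 between 0.28 and 0.34.

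Ccl20, the ligand of Ccr6, summed to 53.8, 56.0 and 50.8 CPM in WT Dex and to 66.8, 65.5 and 64.8 CPM in GR cKO Dex (0.30 ± 0.07, edgeR adjusted p = 0.0114). These groups did not overlap, and 9 of its 10 tested peaks were positive. The exception was the weak peak over the start, whose promoter is printed above (-0.52 ± 0.41). Ccr6 itself was not called (0.10 ± 0.05, adjusted p = 0.341).

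Ccl4 summed to 12.1, 15.1 and 14.1 CPM in WT Dex and to 20.2, 18.0 and 19.6 CPM in GR cKO Dex (0.48 ± 0.11, edgeR adjusted p = 0.0165). The groups did not overlap. Its sister Ccl5 had 0.23 ± 0.07 (adjusted p = 0.0664), Ccl22 0.40 ± 0.12 (0.0587) and Ccl9 0.49 ± 0.17 (0.126), none of them called.

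Ccr3, an eosinophil and Th2 receptor, summed to 40.1, 32.4 and 41.4 CPM in WT Dex and 47.4, 45.8 and 51.0 CPM in GR cKO Dex (0.34 ± 0.08, edgeR adjusted p = 0.0193). Xcr1, the Xcl1 receptor, summed to 17.7, 18.8 and 16.2 CPM against 22.9, 23.5 and 23.0 CPM (0.39 ± 0.10, adjusted p = 0.0211). In both genes all GR cKO Dex libraries lay above all WT Dex libraries.

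Of these 5 calls, 4 depended on single libraries. Without GR cKO Dex replicate 1 or without WT Dex replicate 1 only Ccr2 remained called, while 1.26% and 0.556% of all genes were called. Without WT Dex replicate 3 the count of members called was 3, against 2.22% of all genes, and Ccl20 and Xcr1 were among those lost. Xcr1 was also lost without GR cKO Dex replicate 2, Ccr3 and Xcr1 without WT Dex replicate 2, and Ccr3 without GR cKO Dex replicate 3. For none of the 5 genes was the Dex response itself called different between genotypes, with Xcr1 nearest (-0.49 ± 0.14, edgeR adjusted p = 0.200).

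**Figure D4:**
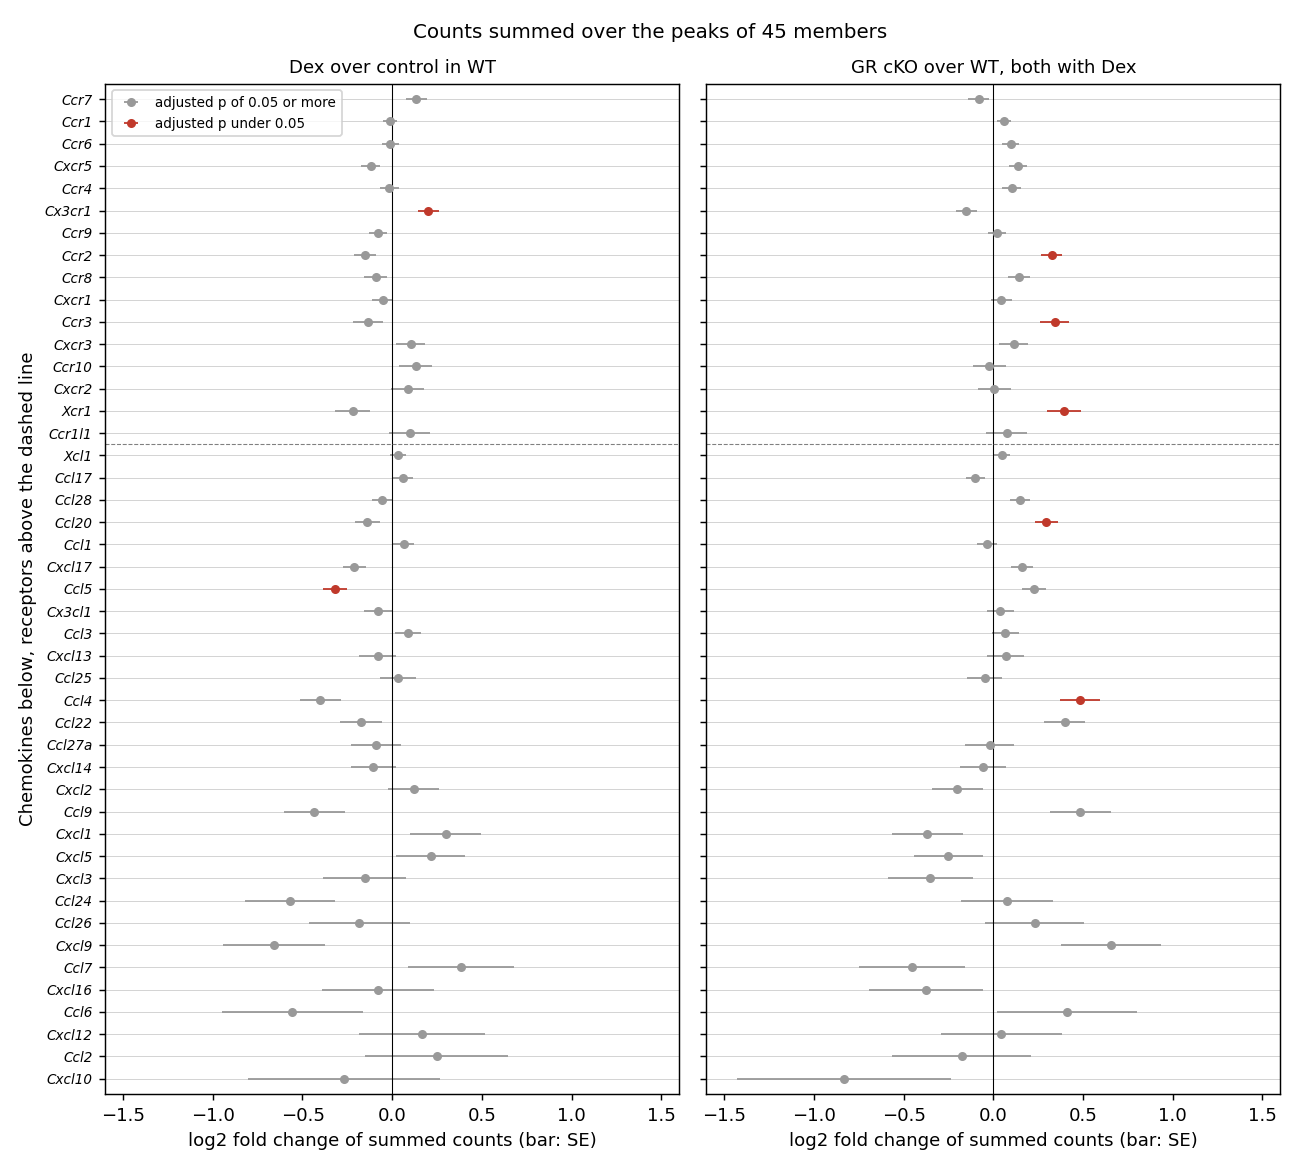
Log2 fold change of counts summed over the peaks of 45 of the 46 members, for Dex over control in WT (left) and GR cKO over WT with Dex (right); bars are SE and red points have an adjusted p under 0.05. In the left panel Ccl5 is red at -0.32 and Cx3cr1 at 0.20, and in the right panel 5 members are red between 0.30 and 0.48.

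Of the 5 genes 3 are near neighbours. Xcr1, Ccr1, Ccr1l1, Ccr3 and Ccr2 lie side by side on chromosome 9, and their 53 tested peaks spanned 262 kb. This stretch was picked with its values in view. With Dex, 38 of the 53 peaks were positive for GR cKO over WT, or 71.7%. Over all tested peaks the share was 49.9%. The median log2 over the 5 genes was 0.22 and that of all peaks 0.00. In control medium 25 of the 53 were positive, with a median of -0.01. For Dex over control, 21 of the 53 were positive in WT (39.6%) and 36 in GR cKO (67.9%). Over all tested peaks these shares were 49.8% and 49.5%. None of the 53 peaks was called in any comparison. Summed over them, libraries overlapped between WT Dex (408 to 452 CPM) and GR cKO Dex (417 to 472 CPM). Ccr1, a receptor for Ccl3 and Ccl5 with the most counts of the 5 genes, had a log2 of 0.06 ± 0.04.

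**Figure D5:**
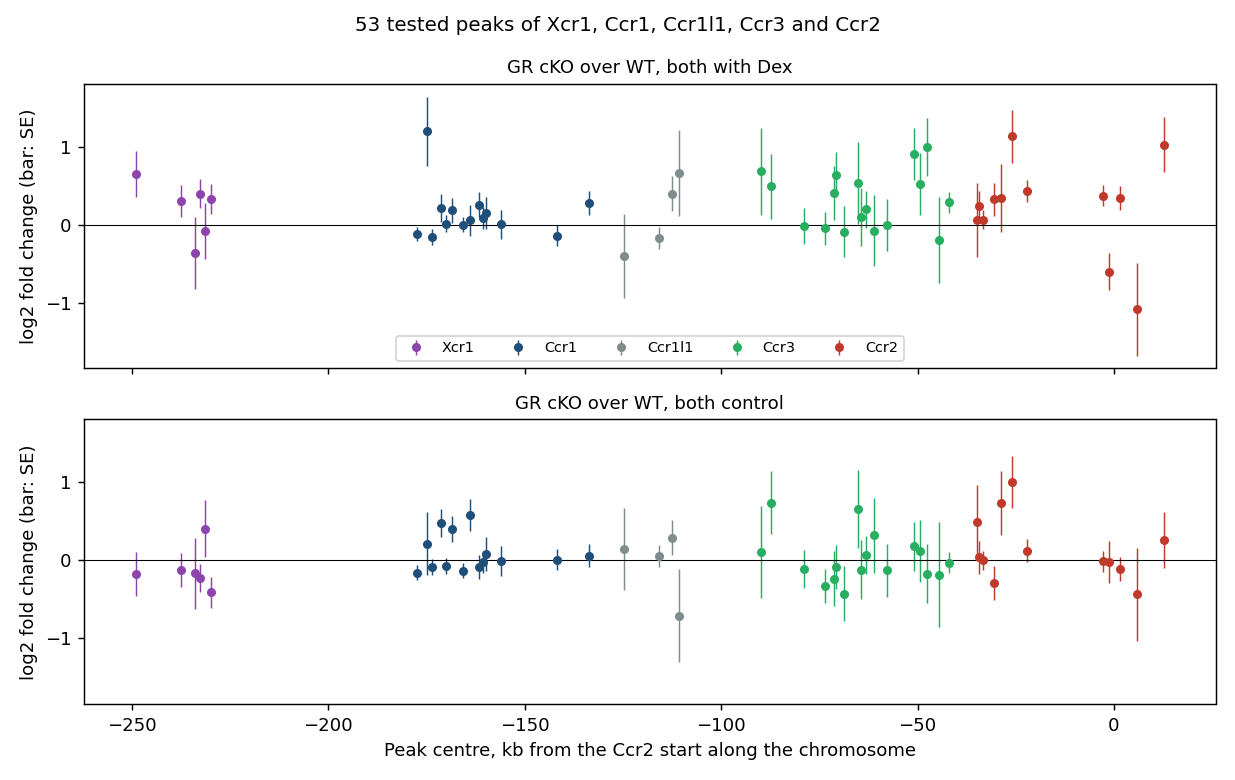
Log2 fold change, GR cKO over WT, of each of the 53 tested peaks of Xcr1, Ccr1, Ccr1l1, Ccr3 and Ccr2 against position in kb from the Ccr2 start, with Dex (top) and in control (bottom); bars are SE. With Dex 38 points lie above 0 and in control 25.

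Chemokine receptors signal through inhibitory G proteins, are switched off by RGS proteins, kinases and arrestins, and move cells through Rac activators and integrins. A list of 50 such genes outside the rule, 45 with a tested peak, had 7 of 1169 peaks higher and 0 lower with Dex in WT. That is 0.599% of its peaks, near the 0.534% of all peaks, and the list's median log2 was -0.01. The 7 peaks belonged to 6 genes. Within Gng2, a G protein gamma subunit, a peak went from 17.6 ± 0.623 to 37.3 ± 3.46 CPM (log2 1.08 ± 0.12, edgeR adjusted p = 9.11e-10).

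Tiam1, a Rac activator, rose by 1.45 ± 0.22 (edgeR adjusted p = 1.63e-05), Itgb2, the beta chain of LFA-1, by 0.67 ± 0.11 (0.000166), and Gnaq, a G protein alpha subunit, by 0.74 ± 0.14 (0.00172). At Rgs1 2 peaks near the gene, which shortens chemokine receptor signalling, rose by 0.68 ± 0.13 and 0.59 ± 0.15, and 1 peak near Pik3cg, a kinase downstream of these receptors, by 0.58 ± 0.15 (0.0445). Of the list's 45 sums 3 were called higher and 1 lower, against 2.64% of all genes called. Gng2, Itgb2 and Rgs1 were higher and Dock2, a Rac activator needed for lymphocyte migration, was lower (-0.18 ± 0.04, edgeR adjusted p = 0.00438).

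In GR cKO no peak of the list was called with Dex by edgeR, and none without Dex between genotypes. By the interaction 1 peak was called, in Gng2 (0.90 ± 0.16, edgeR adjusted p = 0.00463). That is 0.0855% of the list's peaks, against 0.0276% of all peaks. With Dex in both genotypes, the Gng2 (-0.72 ± 0.11) and Tiam1 (-0.93 ± 0.21) peaks were lower in GR cKO and a peak near Rgs3 was higher (1.06 ± 0.23, edgeR adjusted p = 0.0148). These are 0.257% of the list's peaks, against 0.17% of all peaks. Of its 45 sums 2 were called higher and 1 lower, against 2.3% of all genes called. Dock2 (0.18 ± 0.04) and Arrb1 (0.17 ± 0.04), a beta-arrestin, were higher and Rgs1 lower (-0.18 ± 0.05). Peaks of the list with the next smallest p-values, at Pik3r5, Prex1, Itga4, Ackr2 and Elmo1, were not called (edgeR adjusted p from 0.314 to 0.837).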

How the data were processed

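ATAC-seq was measured in 12 mouse libraries, 3 per group. The authors deposited raw counts per peak for 222105 peaks on mm10. Tools named in the submitters' processing notes are featureCounts 2.1.1 (with Subread), Genrich 0.6.1, Bowtie2 2.3.5, Trimmomatic 0.39, SAMtools 1.3, Picard 2.18.27 and deepTools 3.5.6. The notes do not assign roles, and no source used here states a Tn5 offset, the unit counted (read or fragment) or pooled peak calling.

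Peaks were tested with edgeR 4.0.16 (robust quasi-likelihood test, filterByExpr with a minimum count of 10 and minimum total of 15, TMM scaling, 8 residual degrees of freedom) in R 4.3.3, with 1 fit over all 4 groups. The filter removed 19518 peaks. P-values were adjusted by Benjamini-Hochberg over 202587 peaks, and calls used 0.05. The same fit was made on counts summed per gene over all its peaks (17354 genes). SE is the log2 change divided by the square root of F. Values in CPM are TMM-scaled. With 12988437 to 25081591 counts per library, the biological coefficient of variation was 24.8%. Replicates differed by more than sampling noise (chi-square per degree of freedom 2.01 to 3.61). The highest values, 3.06 and 3.61, were those of GR cKO Dex replicate 3 against replicates 1 and 2. The scripts were tested on simulated data.

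Alternatives used DESeq2 1.42.0, limma 3.58.1, other scalings, filters and covariates, a replicate block and each library left out. Members, gene lists and tests were chosen with earlier results of these data known. Named with values were called member peaks, the 3 smallest p-values per direction and comparison, the 8 receptors and 8 chemokines with the strongest peaks, and set lists of receptors, ligands and signalling genes. Other genes named by their sums, the chromosome 9 stretch and the Ccl25 start peak were chosen after their values were seen. Of the members 1 is counted but not reported here.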

Additional observations from a re-analysis of the deposited data

Results flagged for a closer look

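The response to Dex of the peak within Cx3cr1 differed between the genotypes by the test of the difference itself: it was larger in WT than in GR cKO by a log2 of 1.71 ± 0.28 (edgeR adjusted p = 0.000725). All 3 WT Dex libraries lay above the other 9. In 21 alternatives the value ran from 1.56 to 1.83, with an adjusted p of at most 0.0215.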

How the results depend on the processing

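Of 1003 recomputed log2 values for 48 named peaks and sums, 937 kept their direction and side of the threshold, 29 lost a call, 37 gained one and 0 reversed. The Cx3cr1 peak was called in every alternative tried for Dex in WT, the interaction and GR cKO over WT with Dex. With Dex in WT 1 member peak was called, against 0.534% of all tested peaks. DESeq2 called 3, against 1050 peaks higher and 268 lower of the 88684 with an adjusted p (1.49%). The number was 4 with the groups of the contrast alone (1.05% of all peaks tested there), 2 with limma-voom (0.512%) and 5 with loess offsets (1.06%). It was 6 among peaks of mean CPM 1 or more (1.87%). Total counts (0.867%) and the strong-peak share as covariate (1.11%) each gave 4. For GR cKO over WT with Dex, 1 became 3 with loess offsets (0.498%), 4 at mean CPM 1 or more (1.31%), 6 with the share (0.887%) and 2 with total counts (0.441%), against 0.17%. On sums, the 2 members called with Dex in WT became 4 with DESeq2 (340 genes higher and 219 lower of 13989 with an adjusted p), loess offsets (3.44% of genes called) or total counts (3.02%), against 2.64%, and 1 without the called peak (2.64%). The 6 of GR cKO over WT with Dex became 8 with the share as covariate, 6 higher and 2 lower (2.77% of genes, against 2.3%). The share, DESeq2, unfiltered and called-peak settings for sums were chosen after seeing the data. The causes were not tested.

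Leaving out 1 library gave 1 to 2 member peaks with Dex in WT, while 0.236% to 0.675% of all peaks were called. For GR cKO over WT with Dex it gave 1 to 2, with 0.0708% to 0.212% of all peaks. On sums it gave 1 to 3 members with Dex in WT (1.22% to 3.25% of all genes). For Dex in GR cKO it gave 0 to 1 (0% to 1.68%), and for GR cKO over WT with Dex 1 to 6 (0.556% to 2.49%).

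Replicate numbers showed no clear pairing of the samples: 18 correlations between same-numbered libraries ran from -0.188 to 0.258, and 3 exceeded 0.1. Correlations between differently numbered libraries ran from -0.210 to 0.245. With 3 libraries per group these values cannot exclude a pairing. With the replicate block, 4 member peaks were called with Dex in WT, 0 in GR cKO, 1 by interaction, 0 between genotypes in control and 1 with Dex. On sums the block gave 5, 0, 0, 0 and 9, and over all genes 4.19% for Dex in WT and 4.54% for GR cKO over WT with Dex. Over all peaks it gave 0.862% and 0.502% for the same comparisons, against 0.534% and 0.17% without the block. For GR cKO over WT in control it gave 0.0854% of all peaks, against 0.0104%. With 3 libraries per group, a missing call does not show that a peak was unchanged.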
